A study of Mus musculus with 2 samples.

Results

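Kinesins are motor proteins that use ATP to move along microtubules, the hollow tracks of the cytoskeleton, or to take their ends apart. The 33 kinesin genes described here are all genes of the array whose platform symbol starts with Kif and a digit, of 16390 named genes in all. Transcript ratios were taken from bone marrow stromal cells of C57BL/6 mice 3 days after total body irradiation with 9.5 Gy, 1 day after the same dose, or with no irradiation. No genetic change is named in the labels, the sources used here do not give the ages of the mice, and the design text gives 6 mice without saying how they were divided or pooled. Each time point was measured on 1 array, with irradiated RNA in the Cy3 channel and unirradiated RNA in the Cy5 channel. The values below therefore carry no error from replicates, and no p-value is given. The dyes were not swapped, so an effect of the dye on a ratio cannot be told apart from that of irradiation.

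Some kinesins work mainly in dividing cells. They push spindle poles apart, move and hold chromosomes, or build the midzone through which a cell divides, and their transcripts are known to peak in late cell cycle. Others carry vesicles, mitochondria or ciliary building blocks in cells that need not divide. By these known roles, 10 members were placed among the mitotic kinesins, 12 among the transport kinesins and 11 in a class of other kinesins with ciliary, signalling, mixed or less settled roles.

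A ratio was given for 22 of the 33 genes at day 3, for 18 at day 1 and for 15 on both arrays, while 8 had none. The 8 were Kif14 and Kif2b among the mitotic kinesins, Kif13a, Kif16b and Kif17 among the transport kinesins, and Kif19a, Kif21a and Kif27 among the other kinesins. Of all named genes, 26.6% had no ratio on either array, against 24.2% of the kinesins. Each kinesin rested on 1 probe except Kif7, which had 2, of which 1 gave ratios. Other genes with several probes therefore served to show how far probes of 1 gene differ: the pooled SD was 0.58 log2 units at day 3 (116 genes) and 0.76 at day 1 (85 genes). For a difference between 2 genes of 1 array, each with its own probe, these give an SD of 0.82 at day 3 and 1.07 at day 1. A gap above this spread exceeds 1 SD only and was not tested. The spread does not cover the variation from mouse to mouse or from array to array.

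Which channel was the numerator is not stated in the labels, whose wording alone would put unirradiated RNA on top. The ratios were read as log2. Positive values are read here as higher in irradiated RNA because p53 targets, which radiation is known to induce, were positive. Their median log2 ratio was 1.33 at day 3, where 11 of 20 passed 2-fold upwards and 0 downwards, and 1.54 at day 1, where 13 of 19 did so and 0 downwards. Among all genes, 7.35% passed 2-fold upwards and 6.85% downwards at day 3, and 19.6% and 11.1% at day 1. The direction is therefore likely but not settled. With the sign turned, every "higher" and "lower" below is exchanged. The contrasts between the days and between the classes keep their size, provided both arrays have the same numerator.

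At 3 days after irradiation the mitotic kinesins were far lower, and the transport kinesins stayed within 2-fold. All 5 mitotic kinesins measured there were lower by 2-fold or more, with a median log2 ratio of -3.36 (10.2-fold), as were 6.85% of all 11404 genes. None of the 9 transport kinesins and none of the 8 other kinesins passed 2-fold in either direction, and upwards 7.35% of all genes did. Of all 11404 genes, 9785 also stayed within 2-fold, so for these 2 classes this was near the share of all genes. At day 1 the 8 mitotic kinesins with a ratio had a median of 0.83. At that time 2 of them passed 2-fold upwards and 0 downwards, where 19.6% of all 10434 genes did so upwards and 11.1% downwards. Of the 5 transport kinesins measured at day 1, 0 passed 2-fold, while 7230 of all 10434 genes also stayed within it.

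**Figure D1:**
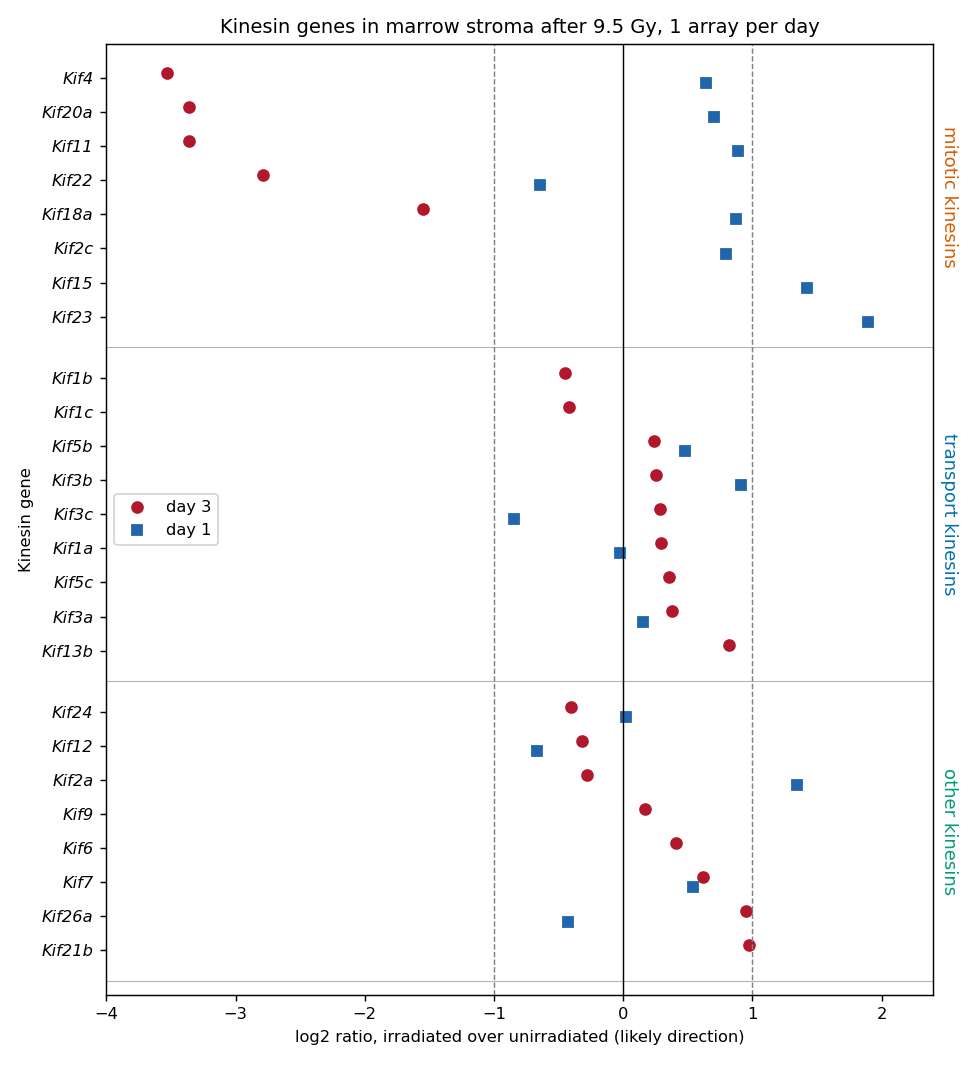
Log2 ratio (x axis) of each kinesin gene with a ratio (y axis), by class, at day 3 (circles) and day 1 (squares), 1 array each. Dashed lines mark 2-fold. The 5 mitotic circles lie between -3.53 and -1.55, left of every other point. A gene with 1 mark had a ratio on 1 array only.

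The mitotic kinesins are given by their task in the spindle. Kif11, whose motor slides antiparallel microtubules and pushes the spindle poles apart, had a log2 ratio of -3.36 at day 3 and 0.89 at day 1. Its day 3 value was the 28th from the lowest among 11404 genes. Kif15, which can share the work of Kif11 in keeping the spindle bipolar, stood at 1.42 at day 1, or 2.68-fold higher, and had no ratio at day 3. The pair could thus be compared at day 1 only, where they differed by less than 1.07.

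The chromosome-bound kinesins were lower at day 3 as well. Kif4, which binds chromosome arms and shapes the central spindle, had the lowest value of all kinesins on either array, -3.53 at day 3, or 11.5-fold lower, and 0.64 at day 1. It ranked 20th from the lowest of all genes at day 3. Kif22, which pushes chromosome arms away from the poles, was at -2.79 at day 3 and at -0.64 at day 1. It was the only mitotic kinesin with a ratio below 0 at day 1. The gap of 1.28 between it and the next, Kif4, was above the probe spread of such a difference, 1.07, which is 1 SD. The day 1 value of Kif22 was closer to 0 than the probe SD of 0.76, so its side of 0 is uncertain.

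Of the kinesins that act on microtubule ends, Kif18a, which damps chromosome movements at the metaphase plate, was at -1.55 at day 3, or 2.93-fold lower, and at 0.87 at day 1. Kif2c, which takes microtubules apart at centromeres, was at 0.79 at day 1 and had no ratio at day 3. At day 3 Kif18a was the least lowered of the 5 mitotic kinesins, and its distance of 1.24 from Kif22 was above the probe spread of such a difference, 0.82, while the distances between neighbours among Kif22, Kif11, Kif20a and Kif4 were not.

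The kinesins of cell division itself are Kif20a and Kif23. Kif20a, which brings the chromosomal passenger complex to the midzone, was at -3.36 at day 3 and 0.70 at day 1. Kif23, the motor of centralspindlin, had the highest ratio of all kinesins on either array, 1.90 at day 1, or 3.72-fold higher, and no ratio at day 3. Kif23 and Kif15 were the 2 mitotic kinesins past 2-fold at day 1. Neither had a ratio at day 3, so among the 5 mitotic kinesins measured on both arrays none passed 2-fold at day 1, with a median of 0.70.

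Between the time points, all 5 mitotic kinesins with both ratios were lower at day 3 than at day 1. The difference in log2 ratio was -4.25 for Kif11, -4.17 for Kif4, -4.06 for Kif20a, -2.42 for Kif18a and -2.15 for Kif22, with a median of -4.06, or 16.7-fold. Each passed 2-fold, as did 16.8% of the 9800 genes measured on both arrays in that direction and 12.1% in the other. The median of all genes in this difference was -0.04. The smallest of the 5 exceeded 0.95, which is the probe SDs of the 2 arrays combined as if independent. A gene has the same probe on both arrays, so 0.95 is not a measured spread of such a difference. The unirradiated RNA on both arrays may come from 1 extract, so the ratios of the 2 days are not independent of each other.

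**Figure D2:**
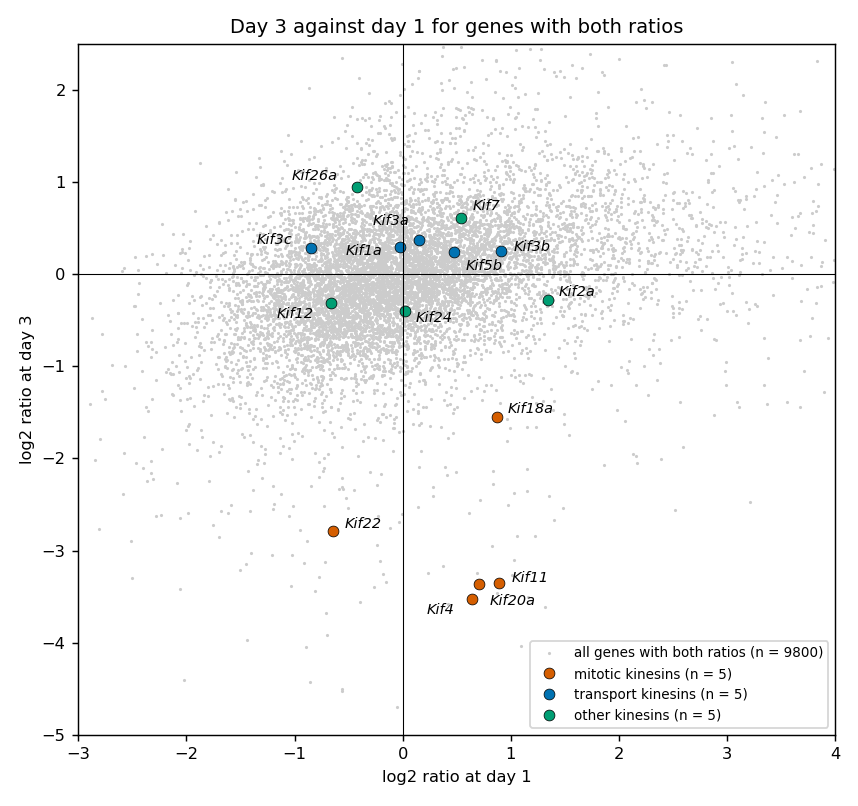
Log2 ratio at day 3 (y axis) against day 1 (x axis) for 9800 genes with both ratios (grey) and the 15 kinesins among them, coloured by class. 193 genes lie outside the axes. The mitotic kinesins lie at or below -1.55 on the y axis, and 4 of the 5 lie right of 0 on the x axis.

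Markers of other cells moved on the same arrays. For comparison, 7.35% of all genes were higher and 6.85% lower by 2-fold at day 3, and 19.6% higher and 11.1% lower at day 1. Among pan-leukocyte markers, 3 of 10 passed 2-fold downwards and 0 upwards at day 3 (range -3.09 to 0.93, median -0.11), and 16 of 16 upwards at day 1 (2.08 to 8.17, median 5.11). The median of granulocyte markers was -1.49 at day 3 (10 genes, -3.19 to 1.99) and 5.89 at day 1 (13 genes, 4.07 to 7.97). Erythroid markers were low on both arrays, 10 of 12 past 2-fold at day 3 (-6.73 to -0.56) and 9 of 10 at day 1 (-5.77 to -0.68). Dividing blood cell precursors also express mitotic kinesins. The part of these cells in the kinesin values was not tested, and in such a bulk sample fewer cells of a type and less RNA per cell cannot be told apart.

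Markers of stromal, fat and vessel cells were as follows, beside shares of all genes past 2-fold upwards of 7.35% at day 3 and 19.6% at day 1. Downwards these shares were 6.85% and 11.1%. Mesenchymal stromal markers were measured for 13 of 14 listed genes at day 3, with a median of 0.20 (-1.50 to 1.27), and for 12 at day 1, with a median of -0.95 (-1.45 to -0.08). Endothelial markers passed 2-fold upwards in 12 of 12 genes at day 3 (1.36 to 2.43), and in 4 of 12 at day 1 (-0.47 to 1.74). Adipocyte markers had 5 of 8 genes past 2-fold upwards at day 3, with a median of 1.65 (-0.30 to 3.27), and 2 of 6 upwards and 1 downwards at day 1, with a median of 0.33 (-1.36 to 1.65). Ratios carry no level, so these values do not say how much of the RNA came from each cell type.

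The promoters of mitotic genes are known to carry a cell cycle genes homology region (CHR), often near CCAAT boxes, through which repressor complexes hold them down outside late cell cycle. The letters TTTGAA (the CHR element), TTTAAA (a variant of it) and CCAAT were searched on both strands. The search ran from 250 bases before to 50 bases after each start in RefSeq (GRCm38.p6). Promoters were found for 28 of the 33 genes by symbol. Among 9 mitotic kinesins TTTGAA was present in 7, among 10 transport kinesins in 1 (Kif1a) and among 9 others in 1 (Kif27), against 17.9% of all 32851 promoters in the table. CCAAT was present in 6, 3 and 3 genes, against 37.4% of all promoters. TTTAAA was present in 2 mitotic kinesins, Kif14 and Kif2c, and in no other kinesin, against 13.2%. These are counts of the class and not of the genes low at day 3. Of the mitotic kinesins with a day 3 ratio, Kif4, Kif11 and Kif22 held TTTGAA and Kif18a did not. No promoter was found for Kif20a. The other mitotic kinesins with TTTGAA (Kif2c, Kif14, Kif15 and Kif23) had no ratio at day 3.

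A window of 120 bases before to 30 bases after the start, set after the positions were seen, is printed for 6 mitotic and 3 transport kinesins, since most of the mitotic matches lay close to the start. In it TTTGAA was present in 6 of the 9 mitotic kinesins, in 1 of the 10 transport kinesins (Kif1a), in 1 of the 9 others (Kif27) and in 8.48% of all promoters. Because the window was drawn around positions already seen, its counts support nothing beyond those of the whole promoters. Sequences run 5′ to 3′ on the strand of the gene. Capitals mark TTTGAA or its reverse complement TTCAAA, and CCAAT or its reverse complement ATTGG. Kif11 (chr19:37376262-37376411, plus strand), Kif4 (chrX:100625945-100626094, plus strand) and Kif22 (chr7:127042391-127042540, minus strand) were measured on both arrays and were low at day 3. Kif23 (chr9:61946770-61946919, minus strand) and Kif15 (chr9:122950961-122951110, plus strand) were the mitotic kinesins past 2-fold at day 1. Kif18a (chr2:109280618-109280767, plus strand) is shown because none of the searched letters occur in it. Among the transport kinesins, Kif1a (chr1:93082451-93082600, minus strand) is the one with TTTGAA, in 1 of its 2 promoters, and Kif3a (chr11:53567249-53567398, plus strand) and Kif3b (chr2:153291296-153291445, plus strand) were chosen as 2 that lack it.
Kif11: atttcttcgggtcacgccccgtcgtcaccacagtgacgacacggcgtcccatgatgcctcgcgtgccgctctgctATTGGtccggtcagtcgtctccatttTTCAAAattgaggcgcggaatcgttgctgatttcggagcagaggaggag
Kif4: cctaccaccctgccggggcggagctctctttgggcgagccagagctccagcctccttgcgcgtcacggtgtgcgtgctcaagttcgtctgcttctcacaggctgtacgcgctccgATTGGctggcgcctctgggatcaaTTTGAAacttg
Kif22: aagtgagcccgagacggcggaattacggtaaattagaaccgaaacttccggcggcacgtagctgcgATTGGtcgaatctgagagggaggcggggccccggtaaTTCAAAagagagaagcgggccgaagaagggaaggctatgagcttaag
Kif23: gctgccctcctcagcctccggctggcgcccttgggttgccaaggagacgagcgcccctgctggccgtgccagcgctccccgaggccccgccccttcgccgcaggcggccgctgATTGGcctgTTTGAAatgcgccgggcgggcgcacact
Kif15: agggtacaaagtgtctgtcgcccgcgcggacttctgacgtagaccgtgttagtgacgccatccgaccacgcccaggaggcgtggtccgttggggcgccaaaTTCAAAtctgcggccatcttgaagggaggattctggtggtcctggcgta
Kif18a: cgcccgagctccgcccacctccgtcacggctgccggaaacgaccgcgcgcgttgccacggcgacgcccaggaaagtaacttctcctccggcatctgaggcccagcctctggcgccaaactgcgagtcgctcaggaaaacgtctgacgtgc
Kif1a: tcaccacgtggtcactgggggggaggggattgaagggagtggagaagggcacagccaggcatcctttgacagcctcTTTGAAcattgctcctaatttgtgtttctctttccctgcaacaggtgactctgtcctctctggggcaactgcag
Kif3a: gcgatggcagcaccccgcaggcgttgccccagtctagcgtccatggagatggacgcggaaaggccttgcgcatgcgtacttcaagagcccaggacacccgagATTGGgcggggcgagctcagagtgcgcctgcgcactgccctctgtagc
Kif3b: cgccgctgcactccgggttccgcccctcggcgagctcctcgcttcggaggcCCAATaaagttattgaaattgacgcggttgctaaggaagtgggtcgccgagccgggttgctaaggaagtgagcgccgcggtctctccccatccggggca

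In Kif11 a CCAAT match began 45 bases before the start and a TTTGAA match 19 bases before it. Kif22 had the same order, at 54 and 17 bases before the start. In Kif4 the pair began 5 bases before the start and at base 20 after it, and in Kif23 at 7 bases before and at base 3 after. Kif15 had TTTGAA at 19 bases before the start with no CCAAT in the searched bases. Further matches lay upstream of the printed window. Kif22 had CCAAT at 233 and TTTGAA at 215 bases before the start, Kif4 had CCAAT at 152 and Kif15 had TTTGAA at 234. Kif1a had TTTGAA at 44 bases before the start of the promoter shown and no CCAAT. Kif3a and Kif3b each had a CCAAT match, at 18 and 69 bases before the start, and no TTTGAA. A match is a description of letters and was not tied to the ratios by any test.

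**Figure D3:**
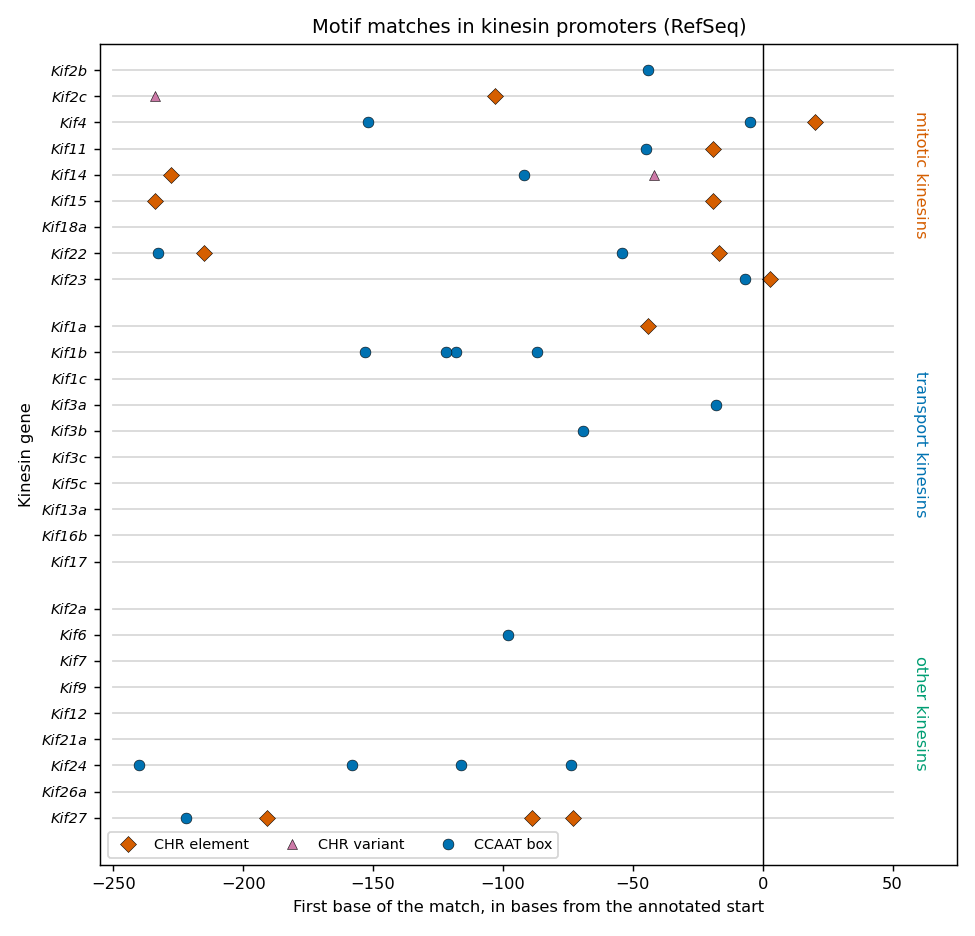
First base of each match (x axis, bases from the annotated start) in the promoters of 28 kinesin genes (y axis), for TTTGAA (CHR element), TTTAAA (CHR variant) and CCAAT. A gene with several promoters in the table has their matches on 1 line. The TTTGAA matches nearest the start belong to Kif23, Kif22, Kif11, Kif15 and Kif4.

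Transport kinesins showed no such shift. Their median log2 ratio was 0.29 at day 3 over 9 genes (range -0.45 to 0.82) and 0.15 at day 1 over 5 genes (range -0.85 to 0.91). Kif5b, the widely expressed heavy chain of conventional kinesin, was at 0.24 at day 3 and 0.48 at day 1. Its neuronal relative Kif5c was at 0.35 at day 3 and had no ratio at day 1.

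The heterotrimeric kinesin that carries material into cilia is built from Kif3a, Kif3b and the linker Kifap3. Kif3a was at 0.38 at day 3 and 0.15 at day 1, and Kif3b was at 0.26 at day 3 and 0.91 at day 1. Kif3c, which pairs with Kif3a mainly in neurons, was at 0.29 at day 3 and -0.85 at day 1. At day 1 Kif3c was the lowest of the 3, apart from Kif3b by more than the probe spread of a difference (1.07) but from Kif3a by less. At day 3 the values lay closer together than the probe spread, so a change of their order is not shown. The difference of 1.13 for Kif3c made it the only transport kinesin past 2-fold between the days, and it was under 2-fold (0.94) with the density peak of each array at 0.

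Among the kinesins of vesicle and organelle transport, Kif1b, a carrier of mitochondria and synaptic vesicle precursors, was at -0.45 at day 3, and Kif1c, a carrier between the Golgi and the cell periphery, at -0.42. Kif13b, which carries vesicles along polarised microtubules, was the highest transport kinesin at day 3 at 0.82. None of these 3 had a ratio at day 1. Kif1a, the neuronal carrier of synaptic vesicle precursors, was at 0.29 at day 3 and -0.03 at day 1. Neighbours in the order of transport kinesins differed by less than the probe spread of a difference on both arrays. The widest step was 0.66 at day 3, between Kif1c and Kif5b, and 0.82 at day 1, between Kif3c and Kif1a.

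Set side by side, the 5 mitotic and 9 transport members with a day 3 ratio did not overlap. The highest mitotic kinesin was at -1.55 and the lowest transport kinesin at -0.45. Of all genes, 6.85% were lower by 2-fold or more at day 3. The mitotic median minus the transport median was -3.64 at day 3 (5 and 9 genes) and 0.68 at day 1 (8 and 5 genes). Over the 5 genes of each class with both ratios, the medians were -3.36 and 0.29 at day 3, and 0.70 and 0.15 at day 1. At day 1 the classes overlapped, with mitotic kinesins at -0.64 to 1.90 and transport kinesins at -0.85 to 0.91. The separation at day 3 depends on which motors are counted. Outside the naming rule, the mitotic motor Kifc1 stood at 0.01, above the lowest transport kinesin, and Cenpe at -0.58, below it. It also depends on the place of Kif2a, which acts at spindle poles but was put among the other kinesins. Counted as mitotic, it stood at -0.28, above the lowest transport kinesin, so the classes overlapped and 5 of 6 mitotic kinesins were lower. The mitotic median was then -3.07 at day 3 and its difference from the transport median -3.36. For day 3 minus day 1 the medians were -4.06 for mitotic and 0.23 for transport kinesins over 5 genes each, a difference of -4.29. A shift common to all genes leaves these differences as they are.

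The class of other kinesins was also within 2-fold at day 3, as were 9785 of all 11404 genes, with a median of 0.29 over 8 genes. Kif21b, a regulator of microtubule growth in neurons and lymphocytes, came closest to the threshold at 0.98, followed by Kif26a, an atypical kinesin of enteric nerve development, at 0.95. Kif21b had no ratio at day 1, and Kif26a was at -0.43. Kif7, which passes Hedgehog signals at the tip of the cilium, was at 0.62 at day 3 and 0.54 at day 1. The ciliary and flagellar kinesins Kif6 and Kif9 were at 0.41 and 0.17 at day 3 with no ratio at day 1.

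Kif2a, which takes microtubules apart at spindle poles and in neurons, was the only member of this class past 2-fold at day 1, at 1.35, and stood at -0.28 at day 3. The difference of -1.62 passed 2-fold. With Kif2a counted as mitotic that class had 3 of 9 genes higher at day 1, against 19.6% of all genes. Kif24, which trims centriolar microtubules, was at -0.40 at day 3 and 0.02 at day 1, and Kif12 was at -0.32 and -0.66. Kif26a was the other gene past 2-fold between the days, higher at day 3 by 1.38. Over all 15 kinesins with both ratios, 6 passed 2-fold downwards and 2 upwards between the days. Among all 9800 genes with both ratios, 16.8% did so downwards and 12.1% upwards, so the upward count was near the share of all genes.

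The split of these calls depends on the centring. With ribosomal protein genes at 0, which moved all genes by 0.57 at day 3 and 0.51 at day 1, 4 kinesins were higher and 4 lower at day 3, in place of none and 5, since Kif18a stood at -0.98. Among all genes past 2-fold at day 3 the share of higher genes was 91.2% under that centring, in place of 51.8%. At day 1 it was 89.9% in place of 63.9%, and 10 kinesins were higher in place of 3. With the density peak at 0 that share was 76.0% at day 1, with 6 kinesins higher. For the difference between days it was 28.4% in place of 41.8% of all genes, and 1 kinesin in place of 2 was higher, with 6 lower.

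The classes differed in which array lacked a ratio. Genes with none on either array made up 20% of mitotic, 25% of transport and 27.3% of other kinesins. Among all genes that share was 26.6%. Of 8 mitotic kinesins with a ratio at day 1, 3 had none at day 3 (Kif2c, Kif15 and Kif23), or 37.5%, against 6.08% of all genes with a ratio at day 1. Of 9 transport kinesins with a ratio at day 3, 4 had none at day 1 (Kif1b, Kif1c, Kif5c and Kif13b), or 44.4%, against 14.1% of all genes. The other kinesins resembled the transport kinesins: of 8 with a ratio at day 3, 3 had none at day 1, or 37.5%. The sources used here do not name the filter behind the empty entries, so an empty entry was read neither as low nor as high.

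A further 3 kinesins are on the array under older names and fall outside the rule. Kif20b (listed as Mphosph1), which acts in cytokinesis, was at -1.62 at day 3 and 1.49 at day 1. Kif18b, a plus-end motor of mitotic microtubules, was at 0.16 at day 1 with no ratio at day 3. Kif26b, the close relative of Kif26a, was at 0.49 at day 3 and -0.36 at day 1 as the mean of 2 probes. With Kif20b and Kif18b added to the mitotic class, its median was -3.07 at day 3 and 0.83 at day 1.

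Motors and light chains outside the naming rule had medians of 0.01 at day 3 (7 genes, 0 past 2-fold) and 0.14 at day 1 (6 genes, 1 higher and 2 lower). The shares of all genes were 7.35% higher and 6.85% lower at day 3, and 19.6% and 11.1% at day 1. Cenpe, the kinetochore kinesin, was at -0.58 at day 3 and 1.67 at day 1, a difference of -2.25. Kifc1, which cross-links spindle microtubules, was at 0.01 at day 3 with no ratio at day 1, and was named after its value was seen. These 2 mitotic motors were thus within 2-fold at day 3, unlike the 5 mitotic members measured there. Kifap3, the partner of Kif3a and Kif3b, was at 0.22 at day 3 and -1.32 at day 1, and the light chain Klc3 was at 0.34 and -1.54. Kifc2, a minus-end motor of neurons, was at 0.18 and 0.27.

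The mitotic partners of these kinesins were lower at day 3 too. Their median was -2.60 (range -4.70 to 0.55), and 13 of 17 passed 2-fold downwards and 0 upwards, against 6.85% and 7.35% of all genes. At day 1, 9 of 21 were higher and 1 lower, against 19.6% and 11.1% of all genes, with a median of 0.78 (range -2.48 to 1.70). Within the chromosomal passenger complex, the cargo of Kif20a, the subunits differed at day 3: Birc5 was at -4.70, Incenp at -0.34 and the kinase Aurkb at -0.14. At day 1 Birc5 was at -0.05, Incenp at -2.48, Aurkb at 0.37 and Cdca8, with no ratio at day 3, at 1.70. Ndc80, which holds microtubules at kinetochores, was at 1.22 at day 1 with no ratio at day 3.

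Besides Incenp and Aurkb, the 2 partners within 2-fold at day 3 were the kinetochore subunit Spc25 (0.18) and the cytokinesis kinase Cit (0.55). These 4 were named after their values were seen. Racgap1, which forms centralspindlin with Kif23, was at -2.59 at day 3 and 0.62 at day 1. The proliferation marker Mki67 was at -3.61 at day 3 and 1.32 at day 1, and Top2a at -3.24 and 0.68. The median of the mitotic kinesins at day 3, -3.36, lay between these 2 values.

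**Figure D4:**
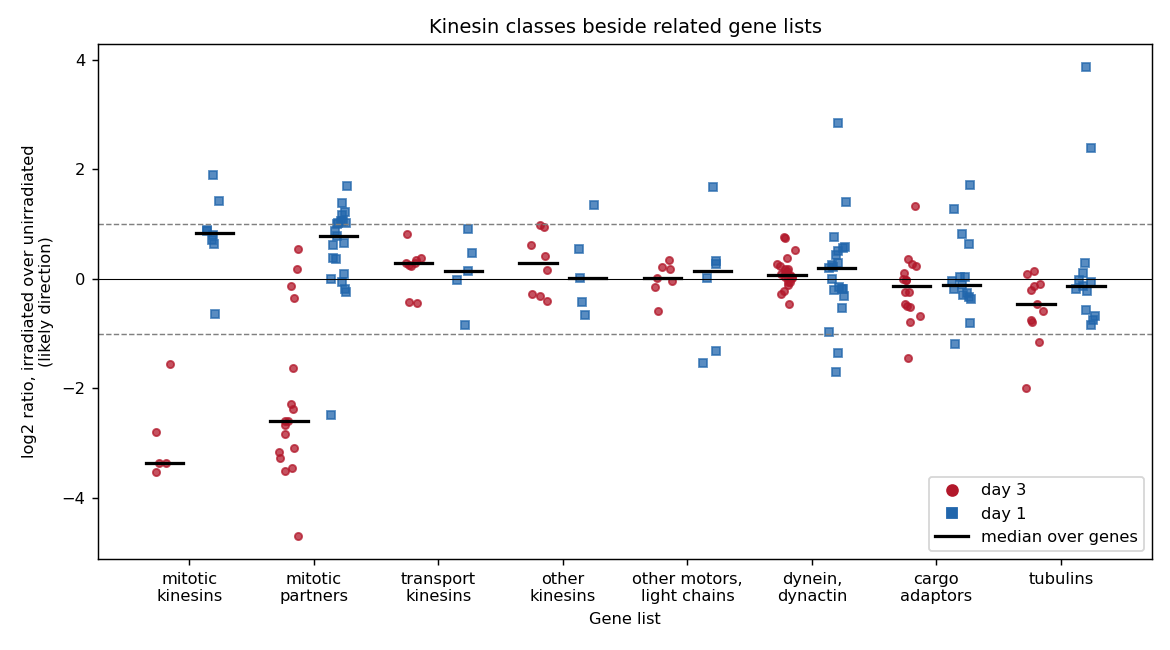
Log2 ratio (y axis) of single genes in the 3 kinesin classes and 5 related lists (x axis) at day 3 (circles, left) and day 1 (squares, right), with the median over genes as a bar. Dashed lines mark 2-fold. The mitotic kinesins and their partners are the lists with medians under -1 at day 3, at -3.36 and -2.60.

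The medians of the rest of the transport machinery lay closer to 0, while single genes ranged widely. Cytoplasmic dynein and dynactin, which move cargo towards minus ends, had medians of 0.08 at day 3 (22 genes, 0 past 2-fold) and 0.20 at day 1 (21 genes, 2 higher and 2 lower, -1.70 to 2.85). Adaptors that tie cargo to transport kinesins had medians of -0.13 at day 3 (16 genes, 1 higher and 1 lower) and -0.11 at day 1 (15 genes, 2 higher and 1 lower). Of these, Hap1, which links kinesin to vesicles in neurons, was higher on both, at 1.34 at day 3 and 1.29 at day 1. Trak2, which ties mitochondria to kinesin, was at -0.24 at day 3 and 1.72 at day 1. The ciliary carriers Ift140 and Ift81 were the lowest by the mean of the arrays, Ift140 at -1.44 at day 3 with no ratio at day 1, and Ift81 at 0.11 at day 3 and -1.20 at day 1. Tubulins, the subunits of the track itself, had medians of -0.46 at day 3 (11 genes, 9 below 0 and 2 past 2-fold downwards, -2.00 to 0.15) and -0.13 at day 1 (13 genes, 2 higher, -0.85 to 3.86). Of all genes, 7.35% were higher and 6.85% lower at day 3, and 19.6% higher and 11.1% lower at day 1.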

How the data were processed

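Each array compared irradiated (Cy3) with unirradiated (Cy5) RNA, amplified as amino allyl RNA, per the labels. The authors deposited 1 log ratio per probe, read here as log2. The base of the logarithm, the numerator, background correction, normalisation and the filter behind empty entries are not given in the sources used here. No intensities were used, so signal over background is unknown, and precision is limited by the number of arrays. The 23473 probes include 8056 without a value at day 3 and 9515 at day 1.

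A symbol was available for 16631 probes, and 6842 had none. In RefSeq (GRCm38.p6) 12622 of these symbols were current and 3947 were older names of a single gene, while 59 fitted more than 1 gene, 3 fitted none, and these were left as they stood. Members were taken by the platform symbol. Probes of a gene were averaged and each array was set to a gene median of 0, which took off 0.0162 (day 3) and -0.0119 (day 1). The size rule for a higher or lower gene was 2-fold. With 1 array per time point no test was possible. Probe positions were not analysed here, so cross-hybridisation was not assessed.

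The members, classes, lists and motifs were chosen with earlier results of these data known, and the p53 list was written after the study's files were opened. All members are named, and from each related list the 2 highest and 2 lowest by the mean of the available arrays. Alternatives covered centring, probe summary, members, the size rule and the sign. Python 3.11.15, pandas 2.3.3 and scipy 1.17.1 were used, and the size rule was tested on simulated data.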

Additional observations from a re-analysis of the deposited data

Results flagged for a closer look

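For 7 of the 15 kinesins with both ratios, the log2 ratio lay on opposite sides of 0 on the 2 arrays and the values were more than 2-fold apart. The share of all genes meeting both conditions was not computed. Whatever their side of 0, 16.8% of 9800 genes passed 2-fold downwards between the days and 12.1% upwards. With 1 array per time point these differences were not tested. The mitotic kinesins among them were Kif11, with a day 3 minus day 1 difference of -4.25, Kif4 (-4.17), Kif20a (-4.06) and Kif18a (-2.42), all below 0 at day 3 and above it at day 1. Kif2a differed by -1.62 in the same direction. Kif26a (1.38) and Kif3c (1.13) went the other way, above 0 at day 3 and below it at day 1. The values of Kif2a (-0.28) and Kif3c (0.29) at day 3, and of Kif4 (0.64), Kif20a (0.70) and Kif26a (-0.43) at day 1, were closer to 0 than the spread between probes, so their side of 0 is uncertain.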

How the results depend on the processing

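No paired analysis was possible because each time point has 1 array and no test was run. Under the 9 alternatives to centring, probe summary, genes, members and summary, the mitotic median ranged from -3.36 to -2.79 at day 3, from 0.76 to 1.34 at day 1 and from -4.25 to -3.24 between days. The transport median ranged from 0.20 to 0.85, from 0.13 to 0.66 and from 0.04 to 0.28, and the difference of the classes from -3.64 to -3.11, from 0.55 to 0.72 and from -4.29 to -3.47. With ribosomal protein genes at 0 the transport median was 0.85 at day 3 and 0.66 at day 1, and the mitotic median -2.79 and 1.34. With the sign turned, an alternative chosen after seeing the data, the mitotic median became 3.36 at day 3, -0.83 at day 1 and 4.06 for day 3 minus day 1, and its difference from transport kinesins 3.64, -0.68 and 4.29. Counts of kinesins moved as well. At day 1 the mitotic kinesins higher, 2 of 8, became 4 with the density peak at 0 and 7 with ribosomal protein genes at 0. They became 0 among genes on both arrays, 7 at 1.5-fold and 1 at 3-fold, and 1 was lower at 1.5-fold. Of all 10434 genes at day 1, 2047 were higher in the main setting, 2464 with the density peak at 0, 3322 with ribosomal protein genes at 0 and 1191 at 3-fold. The upward counts of all genes at 1.5-fold and among genes on both arrays are not given here. Transport kinesins gained 1 higher at day 1 under the density peak, ribosomal and 1.5-fold settings, 1 higher at day 3 under the ribosomal and 1.5-fold settings, and 1 lower at 1.5-fold at day 1 and between days. Their 1 gene higher between days became 0 with the density peak at 0 and at 3-fold. Among the other kinesins, 3 were higher at day 3 with ribosomal protein genes at 0 and at 1.5-fold, 2 were higher at day 1 with ribosomal protein genes at 0 and 0 at 3-fold, 1 was lower at day 1 at 1.5-fold, and the gene higher between days became 0 at 3-fold. Kif2b had no ratio, so its class affects no median and no call. Counting Kif2a as mitotic left 0 of the other kinesins higher at day 1 and 0 lower between days. Over all genes, ribosomal protein genes at 0 gave 2773 higher and 267 lower at day 3 and 3322 and 373 at day 1. The 1.5-fold rule gave 2038 and 2000 at day 3, 2536 lower at day 1, and 2330 and 2638 between days, and the 3-fold rule 252 and 259, 1191 and 300, and 308 and 918. These changes follow from the thresholds, the shifts and the genes left in.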

Other observations

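The extremes of the microtubule and dynein lists moved apart from their medians. The tubulin Tuba4a, abundant in platelets, was at -2.00 at day 3 and 2.39 at day 1, a difference of -4.39 that is close in size to that of Kif11. Tuba8 was at 3.86 at day 1 with no ratio at day 3. Tubb5, the main beta tubulin of dividing cells, was lower at day 3 (-1.15) and at -0.75 at day 1, and the centrosomal gamma tubulin Tubg1 was at -0.75 and -0.68. Tubulin genes are alike in sequence, and cross-hybridisation between them was not assessed. On the same arrays the median of megakaryocyte markers was -1.08 at day 3 (4 genes, -1.39 to -0.02) and 0.65 at day 1 (6 genes, -2.01 to 3.92). Their part in the tubulin values was not tested.

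In the dynein list, Ndel1, a dynein regulator also active at spindle poles, was at 0.54 at day 3 and 2.85 at day 1, the highest of its list at day 1, and the light chain Dynlt1 was at 0.38 and 1.40. The neuronal intermediate chain Dync1i1 was at -0.46 at day 3 and -1.70 at day 1, and the light chain Dynll1 at -0.06 and -1.36. All 4 were closer to 0 at day 3 than at day 1. Neuron and Schwann cell markers gave ratios for 4 of 9 genes at day 3 (-0.59 to 0.50) and for 3 at day 1 (-1.38 to 0.76), beside the neuronal kinesins Kif1a, Kif3c and Kif5c. The median of ciliary markers was 0.14 at day 3 (3 genes, -0.50 to 0.28) and 0.16 at day 1 (4 genes, -0.26 to 0.51).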
